A study of Homo sapiens with 12 samples.

Results

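The 4 arrays described here compared empagliflozin (Empa) with unstimulated control on 2 of the 4 slides of a 12-array series: the slide labelled HK-2 replicate 2 and the slide labelled RPTEC replicate 1. The slides were chosen by measured values, because their control profiles resembled each other more than they did those of the slides with the same line label, and their Empa differences had been seen to run together. The Empa differences and their agreement on these slides are therefore given as a description, without a test. HK-2 and RPTEC/TERT1 are human proximal tubular cell (HPTC) lines made from normal kidney, the first immortalised with papillomavirus genes and the second with telomerase; each is grown as a line, so replicates are cultures of 1 line and not donors. In the series every slide carried 3 arrays of one labelled line and replicate, namely control, IL-1β (10 ng/mL) and Empa (500 nM). All cultures, controls included, had been starved of serum and supplements for 24 h at normal glucose and were then left unstimulated or stimulated for 24 h. RNA was hybridised to Agilent one-colour arrays, and each labelled group holds 1 array per slide. From here on the slides are called the HK-2-labelled slide and the RPTEC-labelled slide.

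Empa blocks SGLT2, the sodium-glucose cotransporter that takes up most of the glucose filtered in the kidney from the lumen of the early proximal tubule. Glucose leaves these cells on the blood side through facilitative transporters such as GLUT2, and phosphate, urate and amino acids are recovered from the lumen by other carriers. Cultured HPTCs keep some of these carriers and, unlike most tubular cells in the body, pass through the cell cycle, whose mitotic genes are transcribed together late in the cycle.

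Of 34127 probes on the array, 18254 passed the background limit on each of the 4 arrays (the members), and they stood for 14670 genes or transcripts with 1 probe each, the brightest. Values are log2 processed signals relative to the 75th percentile of the same array, so that 0 is that percentile, and a difference is Empa minus control of the same slide. The line labels and the profiles disagreed. Control arrays of the HK-2-labelled and the RPTEC-labelled slide correlated at r = 0.976 over 14369 genes. Those of the slides not chosen, labelled HK-2 replicate 1 and RPTEC replicate 2, correlated at 0.982, so this likeness across labels was not particular to the chosen slides. Between both controls labelled HK-2 the value was 0.828, and between both labelled RPTEC 0.819. The source field names HK-2 for all 12 arrays. Results are therefore given by slide and not by line. Of 17 proximal tubule markers, 10 passed the background limit on each of the 4 arrays and 5 on no array, among them ANPEP, CUBN and SLC22A6. Of 10 epithelial markers, 8 were above background, while CDH1, the epithelial cadherin, and OCLN were not on any of the 4 arrays. Markers of the loop of Henle and distal segments passed in 3 of 12, those of fibroblasts in 2 of 8, of endothelium in 1 of 6, of leukocytes in 4 of 6 and of podocytes in 3 of 5. The summed linear level of each of these lists was lower with Empa than in the control on both slides. These sums include signals under the background limit and follow the brightest genes, such as KRT19, DCN and LUM. Single markers went the other way. Of the measured markers, 2 of 10 proximal tubule genes were higher on both slides and 5 lower, among the higher GATM (0.88 and 0.16). Of 3 podocyte genes 1 was higher (PODXL, 0.70 and 0.79) and 2 lower, and of 4 leukocyte genes 1 was higher and 3 lower. On the HK-2-labelled slide the epithelial list summed to 172 in the control and 88.8 with Empa, the distal list to 3.24 and 1.89, the fibroblast list to 9.81 and 6.23, the proximal tubule list to 9.90 and 8.15, the leukocyte list to 2.68 and 1.75, the podocyte list to 1.95 and 1.71 and the endothelial list to 0.259 and 0.212. On the RPTEC-labelled slide the sums were 148 and 96.2 for the epithelial, 2.83 and 1.57 for the distal, 9.71 and 4.87 for the fibroblast, 9.52 and 8.81 for the proximal tubule, 2.46 and 2.17 for the leukocyte, 1.98 and 1.94 for the podocyte and 0.188 and 0.154 for the endothelial list. The part of these markers in the results was not tested.

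A gene was called when its difference had the same sign and at least 2-fold size on both slides. With Empa, 113 genes were called higher (0.77% of those measured) and 69 lower (0.47%), and 1 gene (TTYH2) passed 2-fold on both slides in opposite directions. Smaller differences ran the other way in number. By any amount, 4043 genes (27.6%) were higher on both slides and 6091 (41.5%) lower, and the median over all genes was -0.12 on the HK-2-labelled slide and -0.03 on the RPTEC-labelled slide. Across genes the differences of both slides correlated at r = 0.541, which describes the choice of the slides. Just inside the limit, ZSCAN16-AS1 differed by 1.28 and 1.00 and MELK by 1.34 and 1.00 (log2, HK-2-labelled slide first, as throughout), and just outside it MTFR2 differed by 1.05 and 1.00 and H2BC17 by 1.00 and 1.19.

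**Figure D1:**
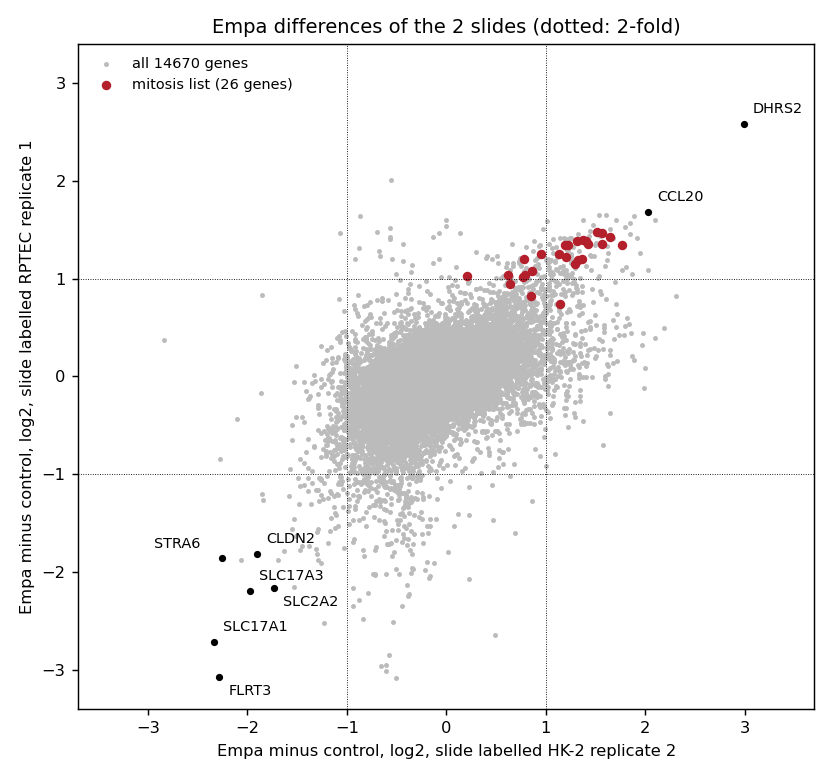
Empa minus control (log2) on the HK-2-labelled slide (x axis) against the same on the RPTEC-labelled slide (y axis), 1 point per gene, with the 26 genes of the mitosis list in red, 8 named genes in black and dotted lines at 2-fold. All 26 mitosis genes lie above 0 on both slides, SLC17A1 lies at -2.34 and -2.71, and FLRT3 at -2.28 and -3.08.

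Genes of mitosis made up the most called group among the lists described. The lists were chosen with earlier results of these data known. All 26 genes of the mitosis list were measured, and all were higher with Empa on both slides (27.6% of all genes). By at least 1.5-fold 25 were higher (2.75% of all), and by at least 2-fold 16, the called genes (0.77% of all). None was lower (41.5% of all genes were lower on both slides). The list median was 1.21 on the HK-2-labelled and 1.23 on the RPTEC-labelled slide, against -0.12 and -0.03 over all genes.

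The stretch before the start of a few of these genes is shown first, because mitotic promoters share short elements, the cell cycle genes homology region (CHR, TTTGAA) and the CCAAT box (CCAAT). The 4 mitosis genes with the largest smaller difference are printed with RRM2 from the DNA replication list and with TACC3 and DHRS2, the genes named by the fits over more slides. Each line gives the 250 bases before the RefSeq start (GRCh38.p14, 5′ to 3′ on the strand of the gene), with CHR and CCAAT letters, read on both strands, in capitals. The windows lie at chr10:60778081-60778330 (CDK1, plus strand), chr2:26785806-26786055 (CENPA, plus strand), chr5:138338356-138338605 (CDC25C, minus strand), chr1:163321704-163321953 (NUF2, plus strand), chr2:10122489-10122738 (RRM2, plus strand), chr4:1720381-1720630 (TACC3, plus strand) and chr14:23629865-23630114 (DHRS2, plus strand). No CHR and CCAAT letters overlapped.
CDK1: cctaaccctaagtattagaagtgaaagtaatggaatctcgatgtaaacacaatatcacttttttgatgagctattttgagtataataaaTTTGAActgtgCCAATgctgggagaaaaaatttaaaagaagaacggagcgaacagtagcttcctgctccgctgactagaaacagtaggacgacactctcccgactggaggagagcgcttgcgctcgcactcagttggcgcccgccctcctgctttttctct
CENPA: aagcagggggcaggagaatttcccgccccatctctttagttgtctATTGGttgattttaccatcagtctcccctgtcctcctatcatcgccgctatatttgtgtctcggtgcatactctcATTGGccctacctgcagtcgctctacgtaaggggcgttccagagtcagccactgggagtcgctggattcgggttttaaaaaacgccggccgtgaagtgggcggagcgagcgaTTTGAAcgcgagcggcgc
CDC25C: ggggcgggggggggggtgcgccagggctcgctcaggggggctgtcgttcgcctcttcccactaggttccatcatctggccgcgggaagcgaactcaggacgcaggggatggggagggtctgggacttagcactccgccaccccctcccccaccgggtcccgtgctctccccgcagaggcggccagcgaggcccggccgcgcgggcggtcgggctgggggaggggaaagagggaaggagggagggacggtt
NUF2: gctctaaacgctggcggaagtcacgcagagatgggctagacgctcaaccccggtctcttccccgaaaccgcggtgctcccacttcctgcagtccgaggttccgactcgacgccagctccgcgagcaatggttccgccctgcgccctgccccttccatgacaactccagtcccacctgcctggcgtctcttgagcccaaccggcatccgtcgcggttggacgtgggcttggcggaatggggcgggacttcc
RRM2: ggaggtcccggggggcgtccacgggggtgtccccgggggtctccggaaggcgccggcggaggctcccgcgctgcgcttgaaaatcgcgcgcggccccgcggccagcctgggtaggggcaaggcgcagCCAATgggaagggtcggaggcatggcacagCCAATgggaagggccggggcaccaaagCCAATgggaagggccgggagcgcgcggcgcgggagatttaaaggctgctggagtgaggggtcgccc
TACC3: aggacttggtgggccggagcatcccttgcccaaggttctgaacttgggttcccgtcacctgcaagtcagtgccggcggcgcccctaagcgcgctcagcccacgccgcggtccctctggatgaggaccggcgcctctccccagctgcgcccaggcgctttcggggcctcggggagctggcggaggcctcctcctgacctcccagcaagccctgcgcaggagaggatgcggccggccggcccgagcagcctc
DHRS2: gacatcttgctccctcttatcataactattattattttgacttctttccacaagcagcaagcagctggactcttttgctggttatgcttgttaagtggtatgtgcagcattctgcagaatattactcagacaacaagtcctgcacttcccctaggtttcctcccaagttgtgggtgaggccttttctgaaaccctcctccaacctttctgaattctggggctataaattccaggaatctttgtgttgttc
CDK1 held 1 CHR and 1 CCAAT box and CENPA held 1 and 2, the CHR of CENPA beginning 18 bases before the start. RRM2 held 3 CCAAT boxes and no CHR. CDC25C, NUF2, TACC3 and DHRS2 held neither in this window, which says only that these letters are not in these 250 bases of 1 annotated start. Of 113 genes called higher, 93 had a promoter in the table, and 25 of them (26.9%) held both motifs, against 3.41% of 10476 measured genes with a promoter and 4.85% of all 27305 promoters of the same length. Taken singly, CHR letters were in 32.3% and a CCAAT box in 65.6% of the 93, against 8.13% and 35.4% of the measured genes. On the mitosis list, 21 genes had a promoter and 10 of them (47.6%) held both, among them CDC20, DLGAP5, KIF11, MKI67, PLK1 and TOP2A. For the genes called lower the share with both was 7.55% of 53. These shares describe letters and not sites.

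CDK1, the kinase that drives entry into mitosis, had a level of 1.38 in the control and 2.90 with Empa on the HK-2-labelled slide and of 1.24 and 2.71 on the RPTEC-labelled slide. Both Empa arrays lay above both controls, a 2.86-fold and a 2.78-fold difference. CDC25C, the phosphatase that activates CDK1, went from -2.04 to -0.40 and from -2.04 to -0.61, 3.13-fold and 2.69-fold higher. CENPA, the histone H3 variant of centromeres, stood at -0.34 and 1.22 and at -0.68 and 0.79. NUF2, a kinetochore subunit, stood at -0.95 and 0.45 and at -0.87 and 0.51. In each of these 4 genes the lower Empa array was above the higher control. Cyclin genes of the list were less far apart, with CCNA2 at differences of 1.37 and 1.39, CCNB1 at 0.85 and 0.82 and CCNB2 at 1.15 and 0.74. CDC20, an activator of the anaphase-promoting complex, had the smallest difference on the HK-2-labelled slide, 0.21, and 1.03 on the other.

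**Figure D2:**
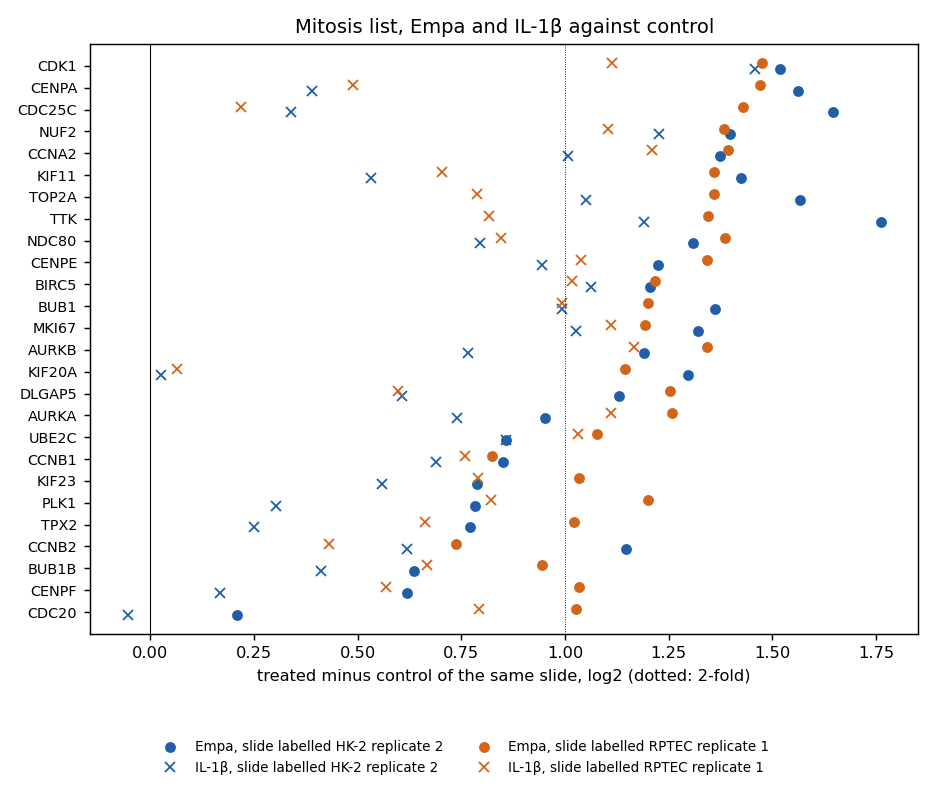
Treated minus control of the same slide (log2, x axis) for the 26 genes of the mitosis list, with Empa as dots and IL-1β as crosses, the HK-2-labelled slide in blue and the RPTEC-labelled slide in orange. Empa dots lie between 0.21 and 1.76, and IL-1β crosses lie to the left of the dot of the same gene and slide.

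IL-1β arrays of the same slides share the controls, so their values are set beside those of Empa and not compared as independent results. For the mitosis list the median difference of IL-1β was 0.71 and 0.80, 25 of the 26 genes being above control on both slides, against 27.3% of all genes. The Empa array was above the IL-1β array on both slides in 26 of 26 genes, by a median of 0.40 and 0.30, against 44.2% of all genes. CDK1 had IL-1β levels of 2.84 and 2.35, against 2.90 and 2.71 with Empa. CDC25C and CENPA were closer to control with IL-1β, at -1.71 and -1.82 and at 0.05 and -0.19.

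Other genes called higher lay outside that list. ANLN, which encodes the cytokinesis scaffold anillin, had levels of -0.72 in the control and 0.99 with Empa and of -0.11 and 1.49 on the respective slides. Its differences were 1.71 and 1.60. ESCO2, the acetyltransferase that makes sister chromatids cohere, differed by 1.89 and 1.64, and its second probe by 1.49 and 1.67. KNL1, a kinetochore scaffold listed as CASC5 on the array, differed by 1.61 and 1.65. NEK2, a centrosome kinase, differed by 1.47 and 1.55 and its second probe by 1.56 and 1.54, and CKAP2L, a spindle protein, was 3.14-fold and 2.83-fold higher. CDKN2C, an inhibitor of cyclin-dependent kinases, went from -0.94 to 0.86 and from -0.98 to 0.55 and was at -0.97 and -1.33 with IL-1β, close to the controls. TMSB15A, a thymosin that binds actin, went from 0.89 to 2.74 and from 0.75 to 2.32, and RTKN2 differed by 2.09 and 1.60.

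Genes of DNA replication were higher less uniformly. Of 27 listed genes 24 were measured, 18 were higher on both slides (27.6% of all genes) and none lower on both (41.5% of all), and 2 were called higher (0.77% of all), RRM2 and TK1, with list medians of 0.46 and 0.53. RRM2, the small subunit of ribonucleotide reductase, had levels of 0.56 and 2.09 and of 0.50 and 2.15, that is 2.90-fold and 3.15-fold higher with Empa. TK1, the thymidine kinase of the S phase, had levels of 4.71 and 5.76 and of 4.46 and 5.64. The helicase genes MCM2, MCM3, MCM4, MCM5 and MCM7 lay between -0.62 and 0.02 on the HK-2-labelled and between 0.01 and 0.34 on the RPTEC-labelled slide. Replication-dependent histone genes, whose transcripts accompany DNA synthesis, were measured in 19 of 25, and 18 were higher on both slides, against 27.6% of all genes, with medians of 0.76 and 0.97. The 3 called higher, against 0.77% of all genes, were H2BC9 (1.21 and 1.24), H3C2 (1.11 and 1.32) and H2AC20 (1.17 and 1.12), and their many close copies make the assignment of a probe to 1 histone gene uncertain.

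DHRS2, a mitochondrial short-chain dehydrogenase, had the largest difference of all genes called higher. Its levels were -4.08 in the control and -1.09 with Empa on the HK-2-labelled and -3.71 and -1.13 on the RPTEC-labelled slide, 7.94-fold and 5.99-fold higher, while IL-1β arrays stood at -4.90 and -4.07, below the controls. Its probe lies at chr14:24114500-24114560 (hg19). On the remaining slides the levels were -6.05 and -4.12 and -8.32 and -4.91, with 1 of those 4 arrays well above background, so that no fold is given there. Over all 4 slides, which include the slides that chose the gene, DHRS2 was the only gene of 14369 (0.00696%) past the threshold of the limma fit, with a mean difference of 2.73 (log2). Since the fit used the slides that chose the gene and signals near background on the others, it is no independent test of DHRS2. The mean difference was 0.94 both with normexp and quantile normalization and with the deposited table, and over the HK-2-labelled and RPTEC-labelled slides alone it went from 2.79 to 1.55 and 1.73 in these settings. DHRS2 no longer passed in either, nor with no replicate block, by an unpaired t-test, or when any single Empa or control array other than those labelled HK-2 replicate 1 was left out.

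CCL20, a chemokine induced by NF-κB, was the only called gene of the 31 measured in the IL-1β and NF-κB list (0.77% of all genes were called higher). Its levels were -2.84 in the control, -0.81 with Empa and 4.41 with IL-1β on the HK-2-labelled slide and -2.38, -0.70 and 4.56 on the RPTEC-labelled slide. Empa arrays lay above the controls by 2.03 and 1.68 and far below the IL-1β arrays. The list as a whole had Empa medians of -0.19 and -0.14 and IL-1β medians of 2.17 and 1.88, and 18 of 31 genes were lower with Empa on both slides against 41.5% of all genes. CCL2, which encodes the chemokine MCP-1, was not well above background on any of the 4 arrays. EDN1, which encodes endothelin-1, was well above background on 3 of the 4, at -3.95 and -4.53 on the HK-2-labelled slide and at -4.28 and, not well above background, -5.31 on the RPTEC-labelled slide. EDN2, the second endothelin, differed by -0.94 and -1.69.

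SLC17A1, SLC17A3, SLC2A2, SLC34A2 and CLDN2 were among the genes called lower, while of the 10 measured genes of the fixed proximal tubule list 0 were called. SLC17A1, a sodium phosphate and urate carrier of the apical membrane, had levels of -2.08 in the control and -4.42 with Empa on the HK-2-labelled slide and of -1.61 and -4.32 on the RPTEC-labelled slide. Both Empa arrays lay below both controls, at 5.06-fold and 6.56-fold lower signal. SLC17A3, a related urate carrier, went from -0.90 to -2.87 and from -0.45 to -2.64. SLC2A2, which encodes GLUT2, went from -1.19 to -2.92 and from -1.26 to -3.42. SLC34A2, a sodium phosphate cotransporter, went from -1.86 to -3.50 and from -2.26 to -4.05. CLDN2, the claudin that makes the proximal tubule leaky to sodium, went from 2.64 to 0.74 and from 1.69 to -0.12. The probes of SLC17A1, SLC2A2 and CLDN2 lie at chr6:25799126-25801155, chr3:170714553-170714612 and chrX:106174032-106174091 (hg19). With IL-1β, SLC17A1, SLC2A2 and SLC34A2 were not well above background on either slide, while SLC17A3 stood at -3.66 and -3.25 and CLDN2 at -0.96 and -1.65, below the Empa arrays.

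**Figure D3:**
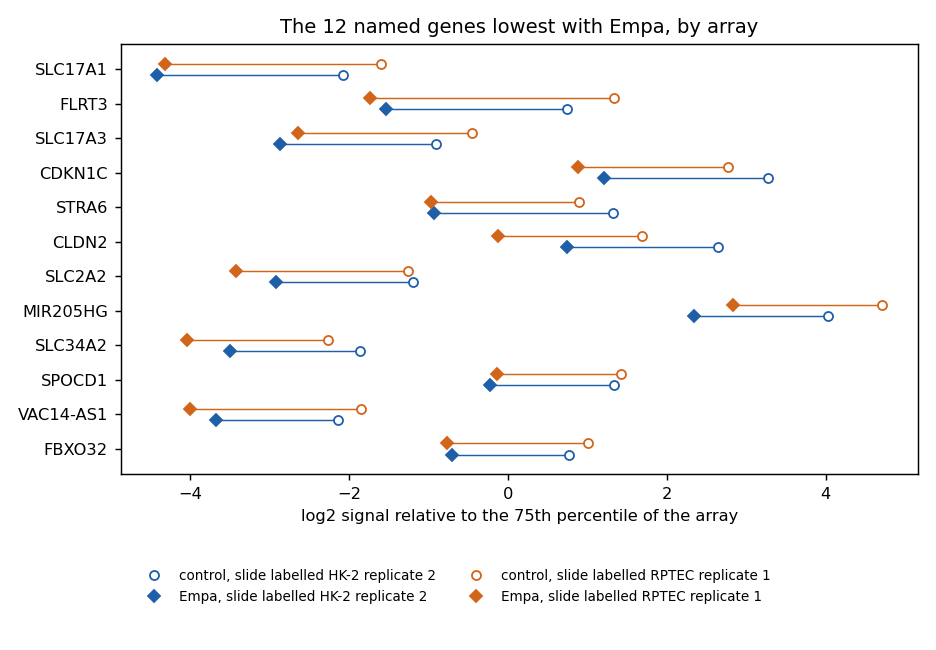
Level by array (log2 signal relative to the 75th percentile of the array, x axis) of the 12 named genes with the largest smaller difference among those called lower, with controls as open circles and Empa as filled diamonds joined by a line within a slide. In every gene both Empa arrays lie below both controls; SLC17A1 runs from -1.61 and -2.08 to -4.32 and -4.42.

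The remaining genes of that plot were of other kinds. FLRT3, an adhesion protein that modulates FGF signalling, had levels of 0.74 and -1.54 and of 1.34 and -1.74, 4.86-fold and 8.45-fold lower with Empa. CDKN1C, which encodes a cyclin-dependent kinase inhibitor of quiescent cells, went from 3.27 to 1.21 and from 2.76 to 0.88. STRA6, the receptor for retinol-binding protein, went from 1.32 to -0.94 and from 0.89 to -0.97, and its second probe was lower by -1.19 and -1.38. FBXO32, a ubiquitin ligase subunit of the FOXO response, went from 0.77 to -0.70 and from 1.01 to -0.76. MIR205HG, the host gene of a microRNA of epithelia, went from 4.03 to 2.34 and from 4.71 to 2.83. SPOCD1 differed by -1.56 and -1.56, and the antisense transcript VAC14-AS1 by -1.53 and -2.16.

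SLC5A2, which encodes SGLT2, the target of Empa, passed the background limit on each of the 4 arrays and was not called. Its level was -1.99 in the control and -2.61 with Empa on the HK-2-labelled slide and -2.40 and -3.13 on the RPTEC-labelled slide, differences of -0.62 and -0.73. SLC5A1, which encodes SGLT1, was not well above background on any of the 4. Of 13 measured SGLT and GLUT genes, SLC2A2 was the 1 called, against 0.47% of all genes called lower, and the list medians were -0.42 and 0.02. Of 11 measured partners in sodium handling, 1 (SLC34A2) was called lower (0.47% of all genes), 7 were lower on both slides (41.5% of all) and 0 higher on both (27.6% of all), and the medians were -0.43 and -0.34. Proximal tubule markers had medians of -0.62 and -0.33 with 0 of 10 called, LRP2, the endocytic receptor megalin, differing by -0.88 and -0.66. The probes of these markers had a median GC content of 52.5%, against 43.3% over all genes. All probes of 50 to 55% GC had medians of -0.40 and -0.04 on the respective slides, and the part of GC content in the marker medians was not tested. Epithelial markers had medians of -0.66 and -0.46. CLDN2 was the 1 called of 8 (0.47% of all genes were called lower), and 7 of 8 were lower on both slides (41.5% of all).

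**Figure D4:**
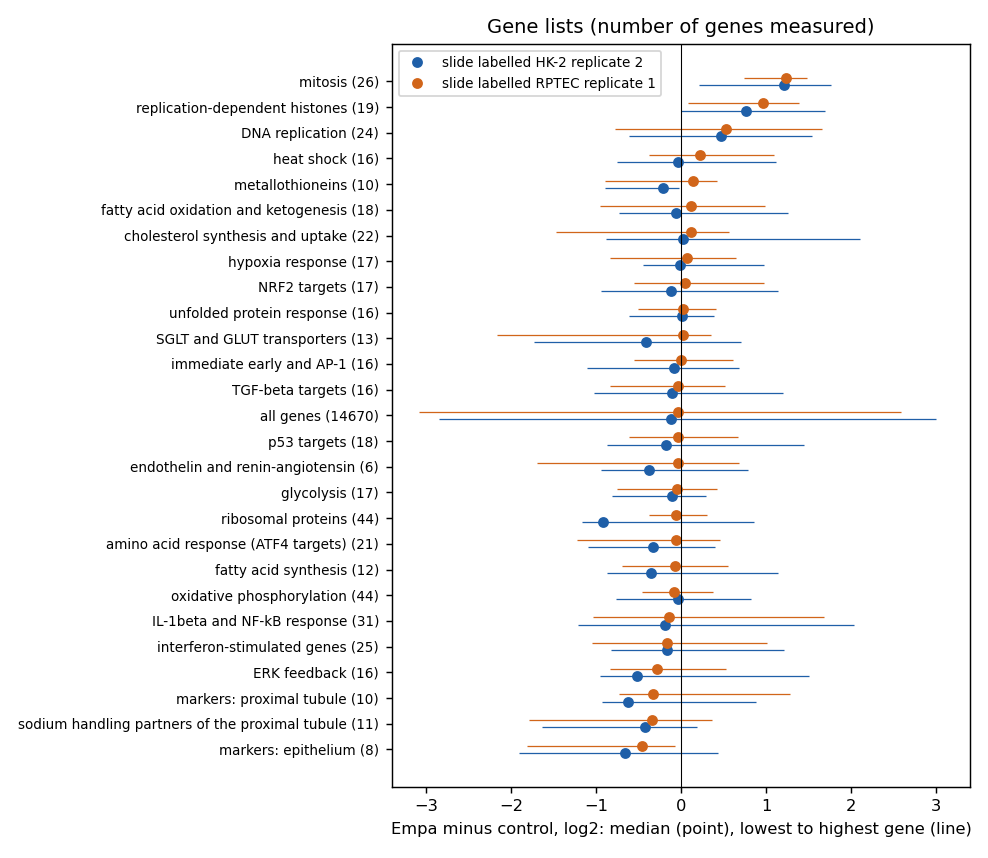
Empa minus control (log2, x axis) for each gene list with at least 5 measured genes (number in brackets), the point marking the median and the line running from the lowest to the highest gene, with the HK-2-labelled slide in blue and the RPTEC-labelled slide in orange. Only the mitosis list has both medians above 1 (1.21 and 1.23), and ribosomal proteins differ most between the slides (-0.92 and -0.06).

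Stress and metabolic lists held few called genes. HSPA1B, an inducible chaperone, was higher by 1.11 and 1.09 and was the 1 called of 16 heat shock genes, against 0.77% of all genes called higher. NUPR1, a stress-induced chromatin protein, was lower by -1.09 and -1.22. It was the 1 called of 21 genes of the amino acid response, against 0.47% of all genes called lower. PDK4, the kinase that holds back pyruvate dehydrogenase in fasting, differed by 0.93 and 0.98 and led the fatty acid oxidation list. In that list 17 of 18 genes were higher with Empa than with IL-1β on both slides, against 44.2% of all genes. Against control its medians were -0.06 and 0.12 with Empa and -0.41 and -0.35 with IL-1β. With Empa 7 of its genes were higher and 6 lower on both slides, against 27.6% and 41.5% of all genes. No gene was called in the lists of cholesterol synthesis, fatty acid synthesis, the unfolded protein response, hypoxia, glycolysis, gluconeogenesis, NRF2 targets, metallothioneins, interferon-stimulated genes, immediate early genes, ERK feedback, TGF-β targets, p53 targets, oxidative phosphorylation, endothelin and renin-angiotensin or ribosomal proteins. Their leading members included ACSS2 (-0.87 and -0.69), IFI44L (-0.82 and -1.05), PHLDA1 (-0.95 and -0.84), TNC (-0.90 and -0.83), GDF15 (-0.82 and -0.61), ERO1A (0.82 and 0.65) and KLF2 (0.68 and 0.61).

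Probes that crossed the background limit were counted apart, since they have only a bound on one side. With Empa 153 probes were well above background on both Empa arrays and on neither control, and 54 the reverse. The bound reached 2-fold in 41 and 29 of them. Among named genes with no other probe above background, the largest bounds for gain were 4.21-fold for EFR3B, 3.67-fold for LIMCH1 and 3.08-fold for KAT2B, an acetyltransferase. The largest for loss were 5.16-fold for TLR8, 4.09-fold for NECAB2 and 3.62-fold for CUTALP. Each bound sets the mean of both bright arrays against the higher of the dim signal and the lowest signal well above background on that array. The bound is averaged over both slides and is no minimum for each slide. TLR8 stood at -3.53 in the control and -8.78 with Empa on the HK-2-labelled slide, and at -4.08 and -5.29 on the RPTEC-labelled slide.

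The remaining slides, labelled HK-2 replicate 1 and RPTEC replicate 2, were not chosen. Their control arrays entered the choice through the comparison of control profiles, while their Empa arrays had no part in it. There the differences of the called genes ran the same way more often than those of all genes, but few were large. Of the 113 genes called higher, 53 were well above background on all 4 of those Empa and control arrays, and 35 (66.0%) were higher on both slides and 5 lower, against 34.8% higher on both among all 12843 genes measured there. Of the 69 called lower, 45 were measured, and 32 (71.1%) were lower on both and 5 higher, against 25.8% of all. At least 2-fold the same way on both were 2 of the 53, against 0.234% of all genes measured there, and 5 of the 45, against 0.413%. At least 2-fold the opposite way on both were 1 of the 53 (TACC3) and 0 of the 45. The limma fit on those slides called 0 of 14414 genes after adjustment, with 1561 at an unadjusted p under 0.05, and an unpaired t-test, used in the study for its PCR and ELISA data but not for arrays, called 0 as well. The mitosis genes could be followed only in part, because 10 of the 26 were well above background on none of those arrays. The 11 measured on all 4 had median differences of 0.09 and 0.04, against 0.13 and 0.01 over all 12843 genes measured there. Of the 11, 5 were higher on both slides and 3 lower, against 34.8% and 25.8% of all genes. CDK1, among the 5 higher, differed by 0.75 and 0.55 there, at levels of -3.18 and -3.37 in the controls.

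Some genes were lower on both pairs of slides. CLDN2 stood at 2.16 in the control and 0.20 with Empa on the slide labelled HK-2 replicate 1 and at 2.08 and -0.43 on the slide labelled RPTEC replicate 2, differences of -1.96 and -2.51. SLC17A1 differed by -1.74 and -1.80 there, with 3 of the 4 arrays well above background, and NUPR1 by -2.04 and -1.60. None of these 3 passed the limma fit on those slides (adjusted p = 0.446 for each). FLRT3, with 0.13 and -0.49, and FBXO32, with 0.51 and 0.38, had small or opposite values there.

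The difference between the pairs of slides was fitted for every gene, and 1 of 14369 (0.00696%) passed the threshold, TACC3, which encodes a spindle microtubule protein and was outside the fixed lists. Its level was -0.39 in the control and 0.70 with Empa on the HK-2-labelled and -0.40 and 0.77 on the RPTEC-labelled slide. On the slides labelled HK-2 replicate 1 and RPTEC replicate 2 it was 0.15 and -1.53 and 0.09 and -1.47. All 12 arrays were well above background. The mean differences of the pairs lay 2.75 (log2) apart, but TACC3 had been called higher on the slides chosen by their values, so that fit is no independent test of it. On the slides not chosen its mean difference was -1.62 ± 0.21 (log2, SE), with a limma adjusted p of 0.446. In the fit of the difference TACC3 no longer passed without HK2_Empa replicate 1 or without any 1 of the 4 arrays of the HK-2-labelled and RPTEC-labelled slides.

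The base composition of the probe moved with the Empa difference on slides of both pairs, most steeply on the HK-2-labelled slide, and its part in the results was not tested beyond the correction given here. There the slope of the difference was -0.245 (log2) per 10 percentage points of GC over 18254 probes, with a median of 0.11 for probes under 40% GC and -0.43 from 50% up. On the RPTEC-labelled slide the slope was -0.0149 and the medians -0.05 and -0.05. IL-1β on the HK-2-labelled slide had a slope of -0.323, and Empa on the slides labelled HK-2 replicate 1 and RPTEC replicate 2 had -0.176 and -0.0713, with medians of 0.33 under 40% GC and -0.18 from 50% up on the first and of 0.09 and -0.09 on the second. The 75th percentile signal was 358 in the control and 723 with Empa on the HK-2-labelled slide and 402 and 321 on the RPTEC-labelled slide. Ribosomal protein genes differed by a median of -0.92 and -0.06. Called genes had a median GC of 41.7% in both directions, against 43.3% over all genes. Probes under 40% GC made up 33.6% of the genes called higher and 43.5% of those called lower, against 33.1% of all genes. After a GC correction within each slide 130 genes were called higher and 69 lower, 107 of the 113 and 53 of the 69 being the same genes, and 17 of the 26 mitosis genes were called.

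**Figure D5:**
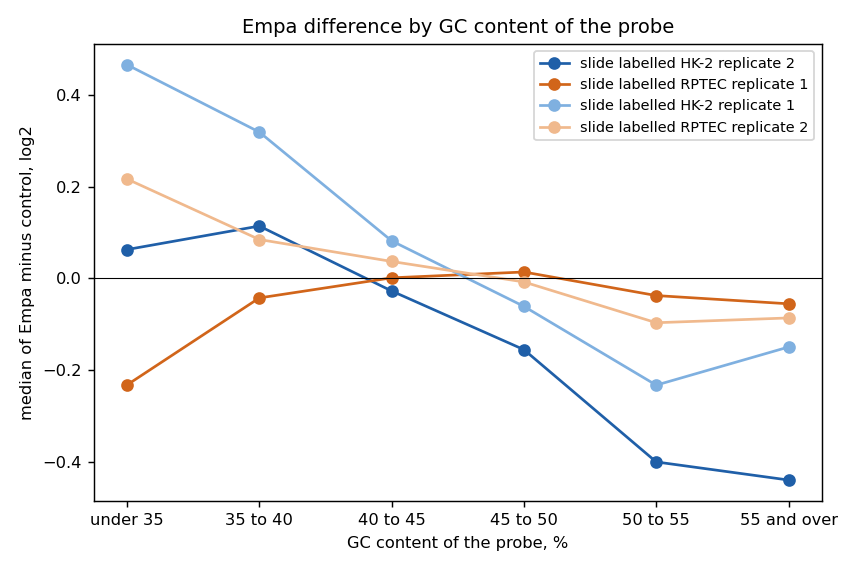
Median of Empa minus control (log2, y axis) by GC content of the probe (x axis, %), 1 line for each of the 4 slides. The line of the HK-2-labelled slide starts at 0.06 under 35% and 0.11 between 35 and 40%. It then goes down to -0.44 at 55% and over, and the slope over all probes was -0.245 per 10 points. That of the RPTEC-labelled slide runs from -0.23 under 35% to 0.01 between 45 and 50% and -0.06 at 55% and over.

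A second probe of other sequence was above background for 2992 genes. Its difference correlated with that of the first probe at r = 0.540 on the HK-2-labelled and 0.444 on the RPTEC-labelled slide across genes, which are not independent, and had the same sign in 70.0% and 67.0% of genes. Of 13 genes called higher with a second probe, 12 had the same sign on both slides, as had 8 of 9 called lower, against 49.6% of all such genes. The second probe itself reached 2-fold on both slides in 5 of the 13 and 3 of the 9, against 19 of all 2992. In MLPH, for example, the first probe had -1.20 and -1.02 and the second -0.14 and -0.05. MKI67, the proliferation marker, had 1.32 and 1.19 by the first and 1.51 and 1.33 by the second probe. MDM1, at 1.25 and 1.42 by the first and 0.45 and -0.45 by the second, and HOGA1, at -1.19 and -1.25 and at -1.04 and 0.33, were the exceptions in sign.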

How the data were processed

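RNA of 12 cultures was measured on 12 one-colour Agilent arrays (Human GE 4x44K v2), of which the 4 Empa and control arrays of 2 slides are described and the others serve for comparison. Per the file headers, the deposited intensity values were read with Feature Extraction, background-subtracted and detrended, with probe positions on hg19; a deposited table of log2 values, quantile-normalized by the authors, served as an alternative. Its scale per slide is not given in the sources used here. Marks for well above background, saturation and outliers are also deposited. Here control spots and outlier spots were left out, spots of a probe averaged, the signal divided by the 75th percentile of its array and log2 taken. Symbols were updated through RefSeq, 13135 of 14670 genes matching. With 1 array per labelled group and slides chosen on these values, differences on the 2 slides have no test. Tests used limma 3.58.1 in R 4.3.3 with slide as a block, over all 4 slides, over the slides not chosen, and for the difference between the pairs, with Benjamini-Hochberg adjustment over all genes and a threshold of 0.05. Biological duplicates are stated by the study. The replicate number names the slide, and arrays were paired by slide for that reason. Within a slide, the deviations of the 3 arrays correlated at r = 0.717 to 0.935. Both slides of a label had unlike profiles (control r = 0.828 for HK-2 and 0.819 for RPTEC). Each deviation holds that difference between slides, so a high r was bound to follow and cannot show that cultures were paired. Pairing of the cultures was not tested. Scan day went with the replicate number, and lies within the slide block. Named genes were the 12 called each way with the largest smaller difference, 4 fixed genes (SLC5A1, SLC5A2, CCL2, EDN1), and up to 4 called members, or the leading one, of each list. Members and lists were chosen with earlier results of these data known. The number of arrays limits the precision. The fits were tested on simulated data.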

Additional observations from a re-analysis of the deposited data

Results flagged for a closer look

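TACC3 was flagged because its Empa difference was not the same in both pairs of slides in a fit of the difference itself, which used the slides chosen by their values and is therefore no independent test. It was higher on the HK-2-labelled and RPTEC-labelled slides (1.09 and 1.17) and lower on the slides labelled HK-2 replicate 1 and RPTEC replicate 2 (-1.68 and -1.55), a difference of 2.75 (log2; limma, slide as a block). TACC3 no longer passed the threshold in 5 of 16 alternatives, each of them leaving out 1 array, and the slides not chosen gave an adjusted p of 0.446 by limma.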

How the results depend on the processing

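Of 357 recomputed values of 51 named genes, 356 kept their direction, and RPL30 turned to 0.0154 with the deposited table. The 357 include the values of each slide alone. Those could not turn, because every named gene had the same sign on both slides. The calls on the 2 slides numbered 182 (113 higher, 69 lower). They numbered 101 with normexp and quantile normalization (77 higher, 24 lower, 76.2% higher against 62.1%), 101 with the deposited table (70 and 31), 88 with probes well above background on all 12 arrays (48 and 40, fewer genes measured) and 920 at 1.5-fold (404 and 516). Each slide alone gave 493 to 680 calls (192 to 397 higher, 283 to 301 lower). The 16 mitosis genes became 3 on all 12 arrays, where fewer are measured, and 25 at 1.5-fold; the other alternatives, all chosen after seeing the data, gave 13 to 23. Quantile normalization moved the median of all genes on the HK-2-labelled slide from -0.12 to -0.01. The fit over all 4 slides called 1 gene, and 0 with normexp, with the deposited table, on all 12 arrays and with no replicate block, 2 by unpaired t-test (the test of the PCR and ELISA data), and 0 to 2 with 1 array left out. The fit on the slides not chosen called 0, also with no replicate block, 23 on all 12 arrays, and 0 to 211 with 1 array left out (85 without HK2_control replicate 1, 211 without RPTEC_control replicate 2). The difference between the pairs called 1 gene, also with no replicate block, 2 with replicate block and GC correction, 55 with normexp, 92 with the deposited table and 0 to 2697 with 1 array left out (15 without HK2_control replicate 1, 14 without RPTEC_control replicate 2, 2697 without RPTEC_Empa replicate 2). In the slide left with 1 array fewer the spread is assumed to be that of the others. The agreement of both probes on the HK-2-labelled slide went from r = 0.540 to 0.437 after GC correction. The cause of these changes was not tested. Genes near background carry the least precise differences.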

Other observations

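MIOX, SLC3A1, TINAG and UGT2B7, genes outside the fixed lists picked after their values were seen, were among those called lower. MIOX, the oxygenase that starts inositol breakdown in the proximal tubule, differed by -1.23 and -1.09 and its second probe by -1.48 and -1.31. SLC3A1, a subunit of the cystine carrier, differed by -1.26 and -1.91, TINAG, a basement membrane protein of tubules, by -1.31 and -1.82, and UGT2B7, a glucuronosyltransferase, by -1.17 and -1.58. With IL-1β on the same slides MIOX (-1.40 and -1.32), SLC3A1 (-2.05 and -2.09) and TINAG (-1.72 and -1.51) were also below control, while UGT2B7 stood at 0.34 and -0.10. On the slides labelled HK-2 replicate 1 and RPTEC replicate 2 the Empa differences were 0.19 and 0.18 for MIOX, 0.37 and -0.05 for SLC3A1 and -0.10 and -0.03 for TINAG.

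Other called genes were also picked after their values were seen. INHBA, a subunit of activin, was lower with Empa (-1.13 and -1.34) and higher with IL-1β (4.01 and 3.79), and CCN3, a matricellular protein, likewise (-1.27 and -1.03 against 2.56 and 2.40). FOXM1 was higher by 1.04 and 1.05, E2F7 by 1.43 and 1.44 and MYB by 1.25 and 1.41. Neither treatment comparison is independent, since both use the same control arrays.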
